A study of Homo sapiens with 6 samples.

Results

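The hyaluronan genes described here are 7 named rows of the gene table, HAS2, HAS3, UGDH, CD44, VCAN, HYAL2 and HYAL3, out of 29790 genes in all. They were picked by name with the contrast of treated and untreated cells already known, so their values in that contrast are given as a description with no test. All 7 passed the filter on low values. RNA was sequenced from A375, an established line of human melanoma cells, in 3 libraries from untreated cells grown side by side with the treated ones (control 0, 1 and 2) and 3 libraries from cells exposed to 3 µM fluvastatin for 24 h (fluvastatin 0, 1 and 2). Fluvastatin inhibits HMG-CoA reductase, the enzyme that feeds the synthesis of cholesterol and isoprenoids. All libraries come from 1 cell line in serum-containing medium, and the labels do not state whether each of the 3 came from its own culture; the spread behind every p-value is that of these libraries and could be technical only. In bulk RNA, a change in the number of cells that express a gene and a change in RNA per cell cannot be told apart.

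Hyaluronan is a long, unsulfated polysaccharide of alternating glucuronic acid and N-acetylglucosamine. Synthases in the plasma membrane build it from UDP-sugars and push it out of the cell, where it forms a hydrated coat with binding proteins such as versican and is recognised by surface receptors, of which CD44 is the best known. Hyaluronidases and other enzymes cut it down again, and in melanoma the amount and size of hyaluronan have been studied for their part in adhesion, migration and invasion.

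Values are taken as FPKM, a unit the table itself does not name, which divide a gene's fragment number by its transcript length and by the mapped fragments of the library, so that levels of different genes can be set side by side. Means are given ± SD over the 3 libraries of a group, and log2 differences ± SE from the fit. The 6 libraries summed to between 686133.2 and 729564.0 FPKM. Steps between low values gave relative depths of 0.966 to 1.185 for the controls and 1.274 to 1.513 for the fluvastatin libraries, with control 0 set to 1, so depth and treatment cannot be told apart. Of 8 melanocyte lineage markers, SOX10 and MITF were above 1 FPKM, and the list summed to 28.5 to 33.6 FPKM in controls and 73.7 to 83.7 FPKM after fluvastatin. The higher sum lay in SOX10, at 20.1 to 26.1 and then 67.1 to 75.4 FPKM, while MITF was at 6.66 to 7.77 and 6.1 to 7.04 FPKM. PMEL, TYRP1, DCT and S100B stayed below 1 FPKM in every library, and MLANA and TYR were not analysed here. Of 7 fibroblast markers 2 averaged at least 1 FPKM (COL1A1 and PDGFRB), and the list summed to 18.3 to 21.7 FPKM in controls and 10.3 to 12.5 FPKM after fluvastatin. The sums were 24.6 to 29.9 and 40.7 to 45.2 FPKM for 2 of 5 leukocyte markers, nearly all CD68, 0.345 to 0.382 and 1.3 to 1.61 FPKM for 4 endothelial markers, mostly KDR, and 481 to 548 and 435 to 484 FPKM for 5 epithelial markers, nearly all KRT8 and KRT18. KRT8 was higher in every treated library (58 to 67.3 and 85.8 to 96.3 FPKM) and KRT18 lower in every one (417 to 481 and 345 to 387 FPKM). EPCAM, CDH1, CDH5, PECAM1, COL1A2 and COL3A1 were at or near 0 in every library, and the part of these lists in the results was not tested.

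In untreated cells the receptor was by far the most abundant transcript of the group and the synthases were among the lowest. The means ranked in the order CD44 (562 FPKM), UGDH (31.3), HYAL2 (17.9), VCAN (6.9), HAS3 (5.59), HYAL3 (3.2) and HAS2 (2.45). In that order the library ranges of VCAN and HAS3 overlapped, as did those of HYAL3 and HAS2, and the other neighbours were apart. After fluvastatin the order was CD44 (579 FPKM), HAS2 (50.4), UGDH (42.6), HYAL2 (18.9), VCAN (18.1), HAS3 (14.4) and HYAL3 (6.17). HAS2 and UGDH overlapped there, as did HYAL2 and VCAN. HAS2 thus went from the last place to the second, and its level moved from percentile 17.9 to percentile 83.2 of the 14344 genes tested.

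**Figure D1:**
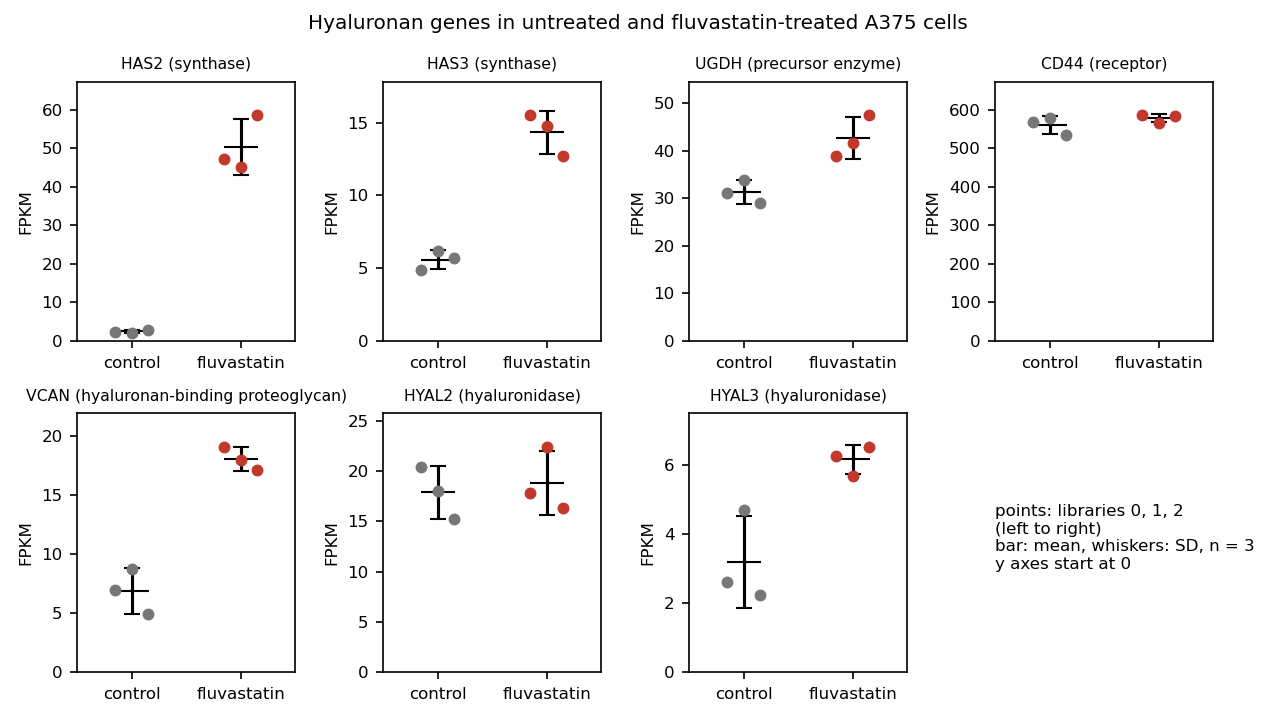
FPKM of the 7 hyaluronan genes in each library (points), with the mean (bar) and SD (whiskers, n = 3) of untreated and fluvastatin-treated A375 cells, each panel on its own linear axis from 0. HAS2, HAS3, UGDH, VCAN and HYAL3 have all fluvastatin points above all control points, whereas the points of CD44 and HYAL2 overlap.

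For 5 of the 7 genes every fluvastatin library was above every control, for 2 the groups overlapped, and none was lower throughout. Among all 14344 genes tested, 21.9% were higher without overlap and 22.9% lower, 44.8% in all. The ratio of group means was at least 2 for 3 members, HAS2, HAS3 and VCAN, against 4.95% of all genes tested. The members were chosen from this contrast, and nothing is read from these shares. The median log2 difference of the 7 members was 0.82, beside -0.01 for all genes tested, both on the log2(FPKM + 1) scale.

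HAS2 (ENSG00000170961.6, protein-coding; chromosome 8, 121612116 to 121641390 of GRCh38, minus strand) encodes the synthase that makes long hyaluronan chains. Its level was 2.32, 2.06 and 2.96 FPKM in controls 0, 1 and 2 and 47.3, 45.2 and 58.6 FPKM in fluvastatin 0, 1 and 2. The groups lay far apart, with the lowest treated library 15.3 times the highest control. The means were 2.45 ± 0.463 and 50.4 ± 7.23 FPKM (SD, n = 3), a ratio of 20.6, and the log2 difference was 3.90 ± 0.14 (SE), at percentile 99.9 of all genes tested. Fluvastatin 2 was the highest library, at 24 times the control mean, beside 19.3 and 18.5 times in fluvastatin 0 and 1.

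HAS2-AS1, a noncoding RNA on the opposite strand, overlaps the HAS2 gene by 2098 bases. It was at 0.499, 0.557 and 0.368 FPKM in the controls and at 2.27, 3.25 and 2.93 FPKM after fluvastatin. It was higher in all treated libraries, as HAS2 was, but at a far lower level. The strand setting of the authors' counting is not given in the sources used here, so fragments of the shared stretch cannot be assigned to one of the pair.

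HAS3 (ENSG00000103044.10; chromosome 16, 69105564 to 69118719, plus strand) encodes a synthase known for shorter chains. Its level was 4.9, 6.2 and 5.67 FPKM in the controls and 15.5, 14.8 and 12.7 FPKM in fluvastatin 0, 1 and 2. The groups did not overlap, and fluvastatin 2, the highest library for HAS2, was the lowest treated one for HAS3. The means were 5.59 ± 0.655 and 14.4 ± 1.44 FPKM (SD, n = 3), a ratio of 2.57, with a log2 difference of 1.22 ± 0.12 (SE). HAS3 overlaps CHTF8 on the opposite strand by 710 bases. The means of CHTF8 were 92.8 ± 5.17 and 84.8 ± 1.81 FPKM (SD, n = 3), far above those of HAS3. Fragments of this shared stretch cannot be assigned either, and the part of CHTF8 in the HAS3 value was not tested.

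HAS2 made up 32.1%, 24.9% and 34.3% of the summed FPKM of the 2 synthases in the controls, and 75.3%, 75.3% and 82.1% after fluvastatin. HAS3 was thus the larger part in every untreated library and HAS2 in every treated one. The sum itself was 7.22 to 8.63 FPKM in controls and 60.0 to 71.4 FPKM after fluvastatin. HAS1, the remaining synthase of the family, was not analysed here.

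**Figure D2:**
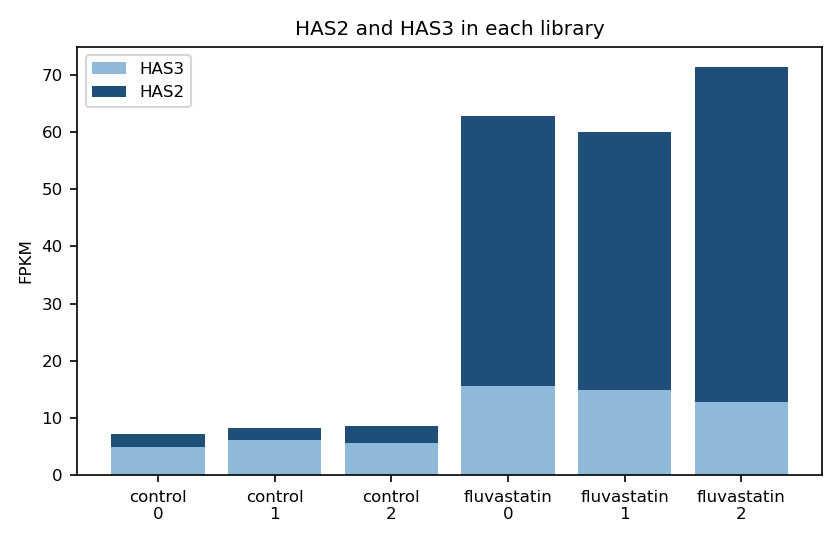
Stacked FPKM of HAS3 (light) and HAS2 (dark) in each of the 6 libraries, on a linear axis from 0. The sum is at most 8.63 FPKM in controls, mostly HAS3, and at least 60.0 FPKM after fluvastatin, mostly HAS2.

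Promoter windows of RefSeq (GRCh38.p14; 250 bases before to 50 bases after a transcript start) were matched by symbol for 6 of the 7 members, all but HAS2. Each was searched on both strands for 7 short motifs. The GC box GGGCGG, bound by SP and KLF factors, was in 45.0% of all 35116 windows, and CACCC in 59.9%. The E-box CACGTG was in 7.26%, TATAAA in 11.5%, the AP-1 motif TGANTCA in 7.71%, the TEAD motif GGAATG in 14.0% and the SREBP motif TCACNCCAC in 1.13%. The windows of HAS3 and VCAN are shown because these are the members, after HAS2, with the largest differences. Capitals mark GGGCGG or CACGTG on either strand. HAS3 is at chr16:69107290-69107589, plus strand, and VCAN at chr5:83471494-83471793, plus strand. Both windows lie inside the annotated gene spans, which start at 69105564 for HAS3 and 83471465 for VCAN. The transcript starts used are thus not the outermost annotated 5′ ends.
HAS3: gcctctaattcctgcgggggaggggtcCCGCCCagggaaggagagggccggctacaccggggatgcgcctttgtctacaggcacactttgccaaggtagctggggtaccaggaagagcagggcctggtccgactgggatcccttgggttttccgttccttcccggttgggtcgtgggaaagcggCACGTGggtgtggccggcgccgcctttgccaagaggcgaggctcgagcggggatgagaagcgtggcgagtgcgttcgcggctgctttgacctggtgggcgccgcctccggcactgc
VCAN: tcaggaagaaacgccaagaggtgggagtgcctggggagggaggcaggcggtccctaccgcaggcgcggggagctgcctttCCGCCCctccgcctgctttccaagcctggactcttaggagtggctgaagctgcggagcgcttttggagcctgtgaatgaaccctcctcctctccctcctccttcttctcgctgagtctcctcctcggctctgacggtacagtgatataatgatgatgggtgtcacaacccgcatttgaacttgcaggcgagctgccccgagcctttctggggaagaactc
The HAS3 window held 1 GC box (position -223 from the transcript start), the only CACGTG among the members' windows (position -66) and 1 CACCC on the other strand (position -61), which shares a base with the CACGTG. The VCAN window held 1 GC box (position -170) and 1 CACCC (position -14). None of the members' windows held the TATA, AP-1 or SREBP letters searched. A match describes the letters and is no sign of binding, and GC content was 67.0% for HAS3 and 60.3% for VCAN, against a median of 58.7% over all windows.

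UGDH (ENSG00000109814.11; chromosome 4, 39498755 to 39528311, minus strand) encodes UDP-glucose dehydrogenase, which oxidises UDP-glucose to the glucuronic acid donor of hyaluronan and of sulfated glycosaminoglycans. It was at 31, 33.9 and 28.9 FPKM in the controls and at 38.8, 41.6 and 47.4 FPKM after fluvastatin. The groups were apart, by a narrow gap between control 1 and fluvastatin 0. The means were 31.3 ± 2.53 and 42.6 ± 4.4 FPKM (SD, n = 3), a ratio of 1.36 with a log2 difference of 0.43 ± 0.11 (SE). With the estimated depth as a covariate the difference was 0.18 ± 0.22. In each control UGDH was 3.35 to 4.29 times the summed synthase FPKM, and after fluvastatin 0.618 to 0.693 times. UGDH-AS1, which overlaps it by 293 bases on the other strand, stayed at 0.201 to 0.286 FPKM in all libraries.

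The other UDP-sugar genes were tested with limma over all genes, where 14.1% rose and 13.6% fell at a Benjamini-Hochberg adjusted p below 0.05. This list and those below were chosen with earlier results of these data known. Of 11 supply genes, all tested, 3 rose, 0 fell and 8 missed the threshold (median log2 difference 0.21). GFPT2, a form of the rate-limiting enzyme of the hexosamine pathway that leads to N-acetylglucosamine, was at 35.1, 34.7 and 38.4 FPKM and then at 69.4, 65.9 and 77.4 FPKM. It rose 1.97-fold (log2 difference 0.95 ± 0.10 SE, adjusted p = 0.00145). Its paralog GFPT1 rose 1.47-fold (adjusted p = 0.0228), a call lost without control 0 (0.0618), control 1 (0.0652) or fluvastatin 0 (0.0526). NAGK, which salvages N-acetylglucosamine, rose 1.72-fold, from 16.8 ± 3.28 to 29 ± 0.406 FPKM (adjusted p = 0.0117). The 3 genes that rose belong to the N-acetylglucosamine side, as do most of the 11 genes listed. PGM3, also on that side, was at 25.8 ± 3.56 and 40.1 ± 9.73 FPKM and did not pass (adjusted p = 0.0633). PGM1, which interconverts glucose phosphates, was at 38.2 ± 2.25 and 43.5 ± 1.59 FPKM (adjusted p = 0.164). UGP2 was at 35.4 ± 2.69 and 41.4 ± 2.43 FPKM (adjusted p = 0.135). PGM1 and UGP2 were higher in every treated library but did not pass, and the groups of UXS1 overlapped. UAP1, which makes UDP-N-acetylglucosamine itself, was at 171 ± 15.1 and 158 ± 16.3 FPKM (adjusted p = 0.501), and GNPNAT1, an acetyltransferase upstream of it, at 41.6 ± 4.83 and 37.8 ± 4.83 FPKM (adjusted p = 0.484).

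CD44 (ENSG00000026508.16; chromosome 11, 35138870 to 35232402, plus strand) encodes the main hyaluronan receptor, a transmembrane glycoprotein with many splice forms that a gene-level table does not separate. It was at 569.9, 580.1 and 535 FPKM in the controls and at 586, 566 and 584 FPKM after fluvastatin. The groups overlapped, and the gene had the smallest spread of the 7, with a coefficient of variation of 4.17% in controls and 1.94% after the drug. The means were 562 ± 23.4 and 579 ± 11.2 FPKM (SD, n = 3), a ratio of 1.03 with a log2 difference of 0.04 ± 0.08 (SE). CD44 stood at percentile 98.9 of level in both groups.

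**Figure D3:**
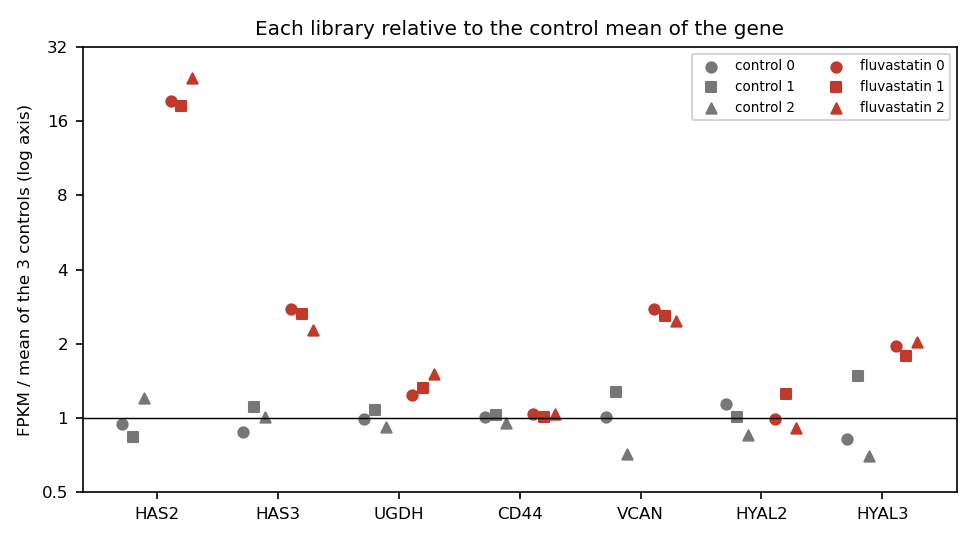
FPKM of each library divided by the mean of the 3 controls of that gene, on a log axis, with controls in grey and fluvastatin libraries in red and the marker shape giving the library number. HAS2 lies at 18.5 to 24 times its control mean, HAS3 and VCAN between 2.28 and 2.78 times, and CD44 and HYAL2 scatter around 1.

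Of 14 genes of other receptors and CD44 partners, 9 could be tested. Of those 4 rose, 2 fell and 3 missed the threshold (median log2 difference 0.18), where 14.1% of all genes tested rose and 13.6% fell. EZR encodes ezrin, which links CD44 and other membrane proteins to actin. It went from 96.8, 87.6 and 84.4 FPKM to 218, 234 and 238 FPKM, a 2.57-fold rise (log2 difference 1.35 ± 0.09 SE, adjusted p = 3.94e-04). MSN, which encodes the related moesin, rose 1.52-fold (adjusted p = 0.00416). RDX, the third of these linkers, was at 73.9 ± 3.11 and 67.5 ± 4.3 FPKM (adjusted p = 0.327). NF2, which encodes merlin, a relative of ezrin that also binds CD44, fell 1.48-fold from 141 ± 9.97 to 95.5 ± 3.83 FPKM (adjusted p = 0.00694). Within this family EZR and MSN thus rose while NF2 fell.

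Among the proteases that cut the CD44 ectodomain, MMP14, a membrane-bound metalloproteinase, rose 2.14-fold, from 48.6, 53.2 and 50.3 to 116, 99.6 and 109 FPKM (adjusted p = 8.77e-04). ADAM17 rose 1.42-fold (adjusted p = 0.0155), a call lost without control 1 (0.0518) or fluvastatin 0 (0.0506). ADAM10 was at 89 ± 2.25 and 89.5 ± 5.86 FPKM (adjusted p = 0.967). HMMR, a hyaluronan-binding protein that also sits on the mitotic spindle, fell 1.8-fold, from 50.2, 52.9 and 62 to 27.3, 30.8 and 33.4 FPKM (adjusted p = 0.00459). TLR4, an innate receptor reported to respond to hyaluronan fragments, was at 18.6 ± 1.59 and 21.2 ± 2.01 FPKM (adjusted p = 0.271). STAB1, STAB2 and LAYN were too low to test, and LYVE1 and TLR2 were not analysed here.

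VCAN (ENSG00000038427.15; chromosome 5, 83471465 to 83582303, plus strand) encodes versican, a large chondroitin sulfate proteoglycan that binds hyaluronan through its N-terminal domain. It was at 6.99, 8.78 and 4.94 FPKM in the controls and at 19.1, 18 and 17.1 FPKM after fluvastatin. The groups were apart, and the controls varied more, with a coefficient of variation of 27.8% beside 5.57%. The means were 6.9 ± 1.92 and 18.1 ± 1.01 FPKM (SD, n = 3), a ratio of 2.62 and a log2 difference of 1.30 ± 0.18 (SE). With the estimated depth as a covariate the difference was 0.84 ± 0.34. CD44 was 66.1 to 108 times VCAN in the controls and 30.6 to 34.2 times after fluvastatin. VCAN-AS1, annotated on the opposite strand within VCAN, was not analysed here.

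Of 15 other hyaluronan-binding matrix genes, 8 were too low to test and 4 (TNFAIP6, ITIH1, ITIH2 and ITIH3) were not analysed here. Of the 3 tested, 0 rose, 2 fell and 1 did not pass (median log2 difference -0.59), where 14.1% of all genes tested rose and 13.6% fell. HAPLN1, the link protein that fastens versican-type proteoglycans to hyaluronan, went from 12.7, 21 and 17.6 FPKM to 5.7, 5.65 and 6.59 FPKM. It fell 2.86-fold (log2 difference -1.35 ± 0.18 SE, adjusted p = 0.0033), opposite in sign to VCAN. PTX3, a pentraxin that stabilises hyaluronan matrices, fell 1.53-fold, from 24.3 ± 0.195 to 15.8 ± 0.842 FPKM (adjusted p = 0.00391). HAPLN3 was at 2.45 ± 0.668 and 1.6 ± 0.296 FPKM (adjusted p = 0.118). The aggrecan, brevican and neurocan genes ACAN, BCAN and NCAN were below the filter.

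Of 6 genes of proteases that cut versican, 3 were tested. Among these 1 rose and 0 fell, where 14.1% of all genes tested rose and 13.6% fell. ADAMTS1 rose 2.07-fold, from 13.2, 13.1 and 8.49 to 28, 21.5 and 22.4 FPKM (adjusted p = 0.0109), and ADAMTS4 and ADAMTS9 did not pass (0.24 and 0.0786). Of 17 genes that build the linker and chondroitin chains which versican carries, 16 could be tested. Of those 3 rose, 0 fell and 13 missed the threshold (median log2 difference 0.15), where 14.1% of all genes tested rose and 13.6% fell. CHST3, a chondroitin 6-O-sulfotransferase, rose 1.73-fold from 4.12 ± 0.175 to 7.14 ± 0.163 FPKM (adjusted p = 0.00229). CSGALNACT2, which starts chondroitin chains, rose 1.51-fold (adjusted p = 0.00543). CHST11, a chondroitin 4-O-sulfotransferase, rose 1.53-fold (adjusted p = 0.0179), a call lost without fluvastatin 0 (0.054) or fluvastatin 2 (0.0585). The chain polymerase gene CHSY1 was at 30.0 ± 0.95 and 28.4 ± 2.58 FPKM (adjusted p = 0.6), its partner CHPF at 28 ± 3.09 and 35.3 ± 3.33 FPKM (adjusted p = 0.0857), and FAM20B, the xylose kinase of the linker, at 36.9 ± 1.86 and 40.2 ± 2.64 FPKM (adjusted p = 0.375).

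Heparan sulfate chains draw on the same UDP-glucuronic acid. Of 10 genes of their synthesis, 9 could be tested. Of those 1 rose, 1 fell and 7 missed the threshold (median log2 difference -0.16), where 14.1% of all genes tested rose and 13.6% fell. NDST2, a sulfotransferase, rose 1.48-fold (adjusted p = 0.0345) and EXTL2, a glycosyltransferase of the linker, fell 1.35-fold (adjusted p = 0.0312). The NDST2 call was lost on leaving out each library but fluvastatin 2 (0.0671 to 0.0809), and the EXTL2 call on leaving out each library but control 0 (0.0519 to 0.0874). The polymerases EXT1 and EXT2 did not pass, at 65 ± 3.24 and 56.6 ± 2.99 FPKM for EXT1 (adjusted p = 0.142) and at 47.9 ± 0.208 and 48.3 ± 2.92 FPKM for EXT2 (adjusted p = 0.947). NDST1 was at 25.5 ± 2.94 and 26.3 ± 0.889 FPKM (adjusted p = 0.787).

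HYAL2 and HYAL3 lie within 1 cluster on chromosome 3 with HYAL1 between them. HYAL2 (ENSG00000068001.13; 50317790 to 50322906, minus strand) encodes a hyaluronidase anchored to the cell surface that cuts long chains, and HYAL3 (ENSG00000186792.16; 50292831 to 50299468, minus strand) a family member whose own activity is less well defined. Their promoter windows are shown because HYAL3 had its groups apart and its neighbour HYAL2 did not. HYAL3 is at chr3:50299356-50299655 and HYAL2 at chr3:50322696-50322995, both on the minus strand and printed 5′ to 3′ along it, with GGGCGG in capitals.
HYAL3: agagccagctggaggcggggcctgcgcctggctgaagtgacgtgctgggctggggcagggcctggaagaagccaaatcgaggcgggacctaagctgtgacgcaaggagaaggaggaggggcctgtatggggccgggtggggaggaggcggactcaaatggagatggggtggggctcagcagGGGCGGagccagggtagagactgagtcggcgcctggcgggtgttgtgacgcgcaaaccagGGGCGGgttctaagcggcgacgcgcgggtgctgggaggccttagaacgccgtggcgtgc
HYAL2: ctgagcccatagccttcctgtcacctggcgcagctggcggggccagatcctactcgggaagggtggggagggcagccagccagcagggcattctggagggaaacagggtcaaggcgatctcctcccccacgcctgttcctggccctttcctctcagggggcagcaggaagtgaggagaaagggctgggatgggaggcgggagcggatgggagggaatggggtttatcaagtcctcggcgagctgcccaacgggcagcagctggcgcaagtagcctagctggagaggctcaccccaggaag
The HYAL3 window held 2 GC boxes and 4 CACCC, and the HYAL2 window 0 GC boxes, 2 CACCC and 1 GGAATG. The window of CD44, whose groups overlapped, held 2 GC boxes and 2 CACCC, and that of UGDH 2 GC boxes, 0 CACCC and 1 GGAATG. A GC box was in 45.0% of all windows, and the part of these letters in the results was not tested. RefSeq lists a further HYAL3 start, at chr3:50298811-50299110, whose window also held 2 GC boxes. GC content was 68.3% and 65.0% in the printed windows.

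HYAL2 was at 20.4, 18 and 15.2 FPKM in the controls and at 17.8, 22.4 and 16.3 FPKM after fluvastatin. The groups overlapped, with means of 17.9 ± 2.59 and 18.9 ± 3.16 FPKM (SD, n = 3), a ratio of 1.06 and a log2 difference of 0.07 ± 0.15 (SE). HYAL3 was at 2.62, 4.72 and 2.25 FPKM in the controls and at 6.28, 5.7 and 6.54 FPKM after fluvastatin. Its groups did not overlap, but control 1 stood above the other controls, and the lowest treated library was 1.21 times control 1. The means were 3.2 ± 1.33 and 6.17 ± 0.43 FPKM (SD, n = 3), a ratio of 1.93, or 2.53 without control 1, and the log2 difference was 0.82 ± 0.21 (SE). With the estimated depth as a covariate the HYAL3 difference was 0.19 ± 0.36.

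HYAL3 shares its locus with NAT6 (named NAA80 in the annotation), an actin N-terminal acetyltransferase gene whose whole span of 3020 bases lies within HYAL3 on the same strand. The annotated 5′ end of NAT6, at 50299421, falls inside the printed HYAL3 window, so that window cannot be assigned to HYAL3 alone. NAT6 was at 9.41, 7.17 and 7.0 FPKM in the controls and at 15.2, 16.5 and 14.8 FPKM after fluvastatin. It was higher in all treated libraries, from 7.86 ± 1.35 to 15.5 ± 0.871 FPKM (SD, n = 3), and at each library's level above HYAL3. Fragments of shared sequence could be given to either gene, so the HYAL3 value is uncertain, and the part of NAT6 in it was not tested. IFRD2, which overlaps the other end of HYAL3 by 88 bases, was at 151 ± 21.6 and 96.8 ± 13 FPKM (SD, n = 3). TUSC2 overlaps HYAL2 by 2880 bases on the same strand and was at 15 ± 2.12 and 14.8 ± 1.18 FPKM (SD, n = 3), so HYAL2 values carry the same doubt.

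**Figure D4:**
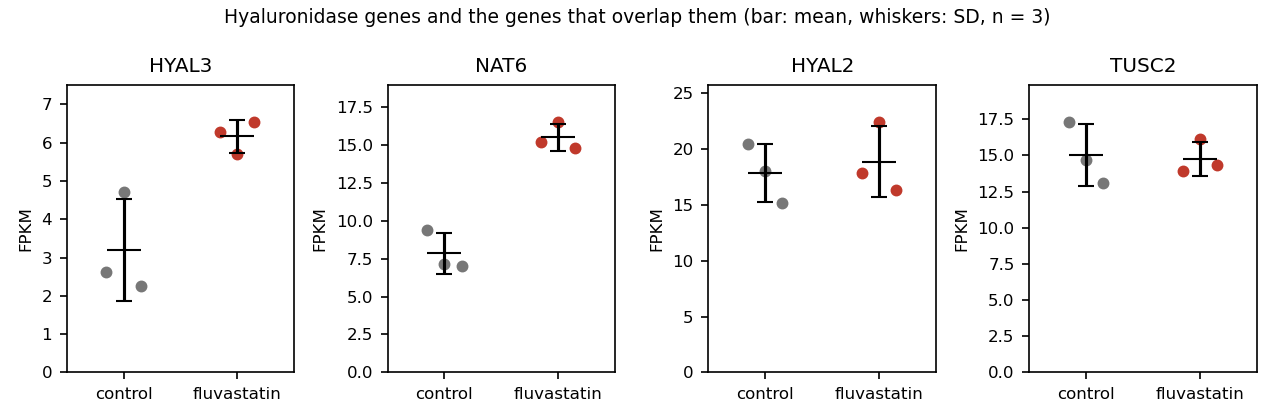
FPKM by library of HYAL3 and HYAL2 and of NAT6 and TUSC2, which overlap them on the same strand, with mean (bar) and SD (whiskers, n = 3), each on its own linear axis from 0. HYAL3 and NAT6 are both higher in all 3 fluvastatin libraries, and the groups of HYAL2 and TUSC2 overlap.

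The summed FPKM of HAS2 and HAS3 was 0.314 to 0.495 times that of HYAL2 and HYAL3 in the controls and 2.13 to 3.12 times after fluvastatin. HYAL3 was 11.4% to 20.8% of the hyaluronidase pair before and 20.3% to 28.6% after the drug, ranges that overlap. HYAL1, the lysosomal hyaluronidase, was below the filter, at 0.357 FPKM or less in every library. Of 9 other turnover genes 6 were tested and 0 passed at an adjusted p below 0.05 by limma, where 14.1% of all genes tested rose and 13.6% fell. HEXA, a lysosomal hexosaminidase gene, was at 40.5 ± 2.64 and 48.7 ± 3.74 FPKM (adjusted p = 0.0946). GUSB, a glucuronidase, was at 32.4 ± 3.26 and 28.9 ± 1.03 FPKM (adjusted p = 0.296). The depolymerising proteins CEMIP and TMEM2 were at 3.21 ± 0.75 and 2.09 ± 1.08 FPKM for CEMIP (adjusted p = 0.225) and at 29 ± 3.5 and 28.5 ± 3.75 FPKM for TMEM2 (adjusted p = 0.901).

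**Figure D5:**
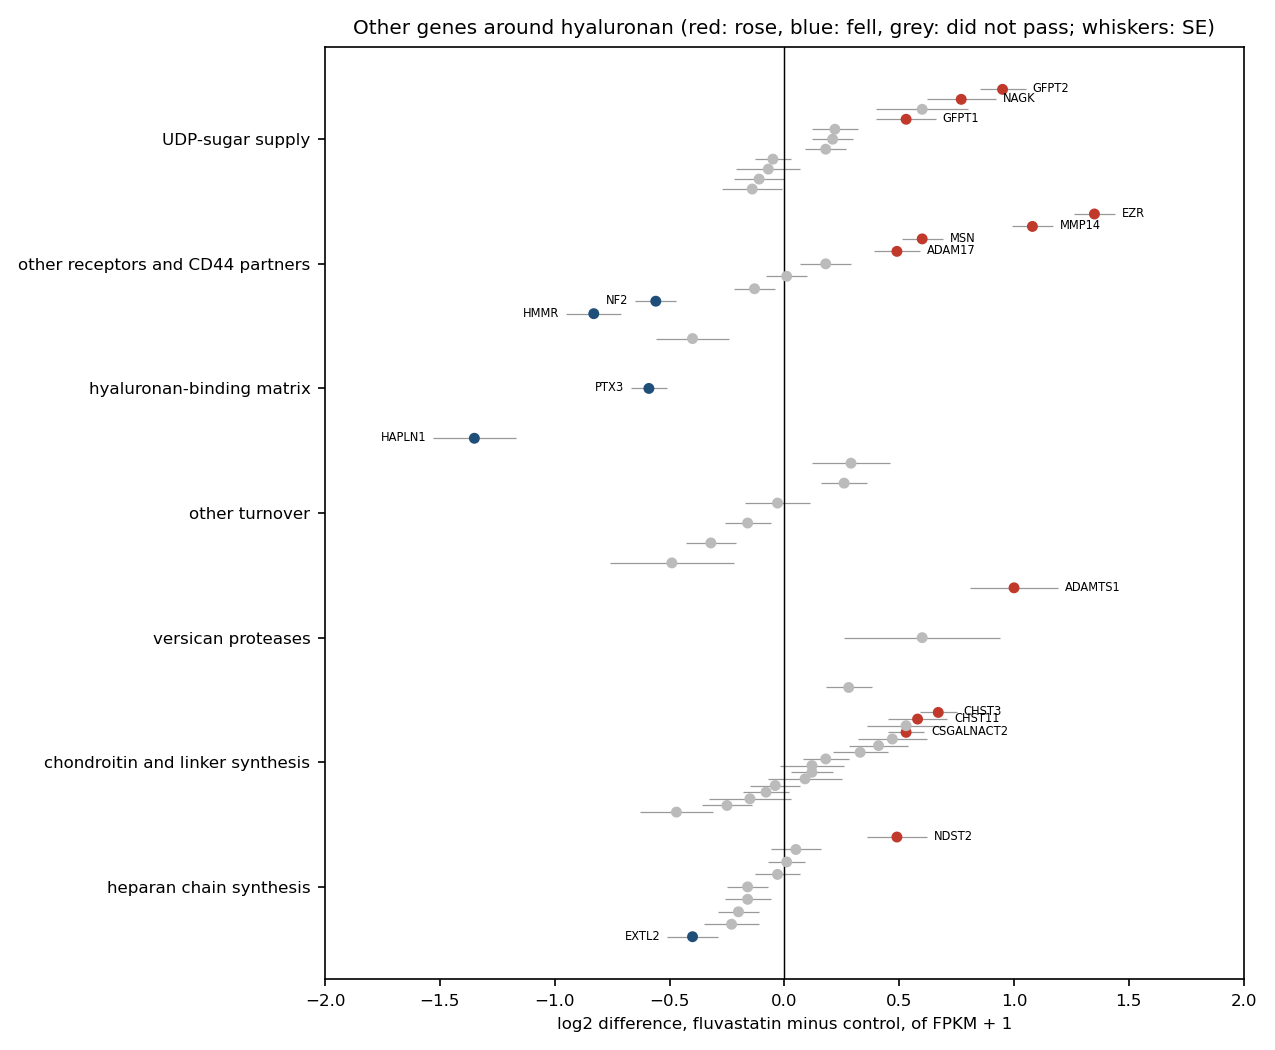
Log2 difference (fluvastatin minus control, on the log2(FPKM + 1) scale) of the 57 tested genes around hyaluronan that are not among the 7 members, by list, with SE as whiskers. Named red points rose (12), named blue points fell (5) and grey points did not pass (40).

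The lists were chosen with earlier results of these data known, so nothing is read from their shares of calls. Over all lists, 83 genes were listed and 57 could be tested. Of those 12 rose (21.1%), 5 fell (8.77%) and 40 missed the threshold (median log2 difference 0.09). In the same fit 14.1% of all genes tested rose and 13.6% fell. With the estimated depth as a covariate 0 of the 17 called genes passed with limma, at adjusted p from 0.0724 (EZR) to 0.634 (EXTL2), and at an unadjusted p below 0.05 that fit had 7 of the 57 genes higher and 5 lower. Over all 14344 genes that fit called 0.342% as risen and 0.0837% as fallen. All 17 genes had the same sign in it, and 14 had a log2 difference within 1.5 times of that reported above, with SEs 1.94 to 2.33 times as large. EZR was at 1.30 ± 0.21 beside 1.35 ± 0.09, and MMP14 at 1.13 ± 0.21 beside 1.08 ± 0.09. The 3 that moved further were NAGK (0.48 beside 0.77), CHST11 (0.36 beside 0.58) and EXTL2 (-0.21 beside -0.40).

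Likeness of pattern was measured as Pearson's r of log2(FPKM + 1) over the 6 libraries among 9545 protein-coding genes that averaged 5 FPKM or more, and it mostly reflects the split into 2 groups. The genes most like HAS2 were RNF182, ITGA6 and NR4A1 (r = 0.999 each). ITGA6, an integrin chain, went from 164 ± 5.86 to 288 ± 10.0 FPKM and NR4A1, a nuclear receptor, from 4.48 ± 0.238 to 14.4 ± 0.592 FPKM (SD, n = 3), so ratios of 1.76 and 3.21 stood beside 20.6 for HAS2. Most like HAS3 were CAPRIN2, SFXN3 (0.998 each) and ARRDC1 (0.997), and most like VCAN were CD276 (0.996), TMUB2 and CAPN1 (0.995 each). For UGDH they were YKT6 (0.998), RGS20 (0.994) and APOBEC3F (0.993), and for HYAL3 LCAT (0.993), PTPN9 (0.987) and MAP2K3 (0.986). CD44 was closest to ZYX (0.989), CCDC97 (0.987) and STEAP3 (0.976), and HYAL2 to HOXA4 (0.986), TMEM54 (0.982) and ARFIP2 (0.981). For these last pairs the groups overlap, so the likeness is one of small differences between libraries.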

How the data were processed

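The deposited table holds 1 FPKM value per gene and library; its header names no unit, and FPKM was assumed because the submitters' processing notes name STAR, Cufflinks, Cuffdiff and hg38, without versions. Annotation release, strand setting and rescaling between libraries are not given in the sources used here. Identifiers were matched to GENCODE release 29 (GRCh38) without version for 29542 of 29790 genes. No pair of libraries shared more than 2 identical values above 0. A gene entered the test when 3 or more libraries had 1 FPKM or more. The test was limma 3.58.1 (R 4.3.3) on log2 of FPKM plus a pseudocount of 1 (two-sided, trend and robust off, no replicate block), with Benjamini-Hochberg adjustment over all genes and a threshold of 0.05. That scale understates changes of low genes. The fit was also run on simulated data with no depth difference between groups, so that run cannot speak to the part of depth. FPKM carries no counts, so relative depth was taken from the commonest ratio of low values between libraries and intervals for counting error were not computed. The 7 members and the lists were chosen with earlier results of these data known. Named genes were the members, list genes that passed, up to 3 list genes a list that did not pass with a mean of at least 5 FPKM, HAS1 and HYAL1, and the 3 genes most like each member. Some further list genes are named in addition, chosen after their values were seen. Alternatives were leaving out each library, a replicate block, depth as a covariate, protein-coding genes only, trend and robust on, quantile normalization, scaling by trimmed M-values, filters of none or of a 5 FPKM mean, and a pseudocount of 0.1. Values of genes overlapping a member were added after seeing the data. The values of 1 turnover gene are not reported here.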

Additional observations from a re-analysis of the deposited data

How the results depend on the processing

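With the estimated depth as a covariate the number of listed genes that rose was 0 and that fell 0 (limma; 12 and 5 without it), beside 49 and 12 of all 14344 genes (2017 and 1954 without it). Of the 17 listed genes called without it, 14 kept a log2 difference within 1.5 times, with SEs 1.94 to 2.33 times as large. In that fit the log2 difference of HAS2 was 4.18, of UGDH 0.18, of VCAN 0.84 and of HYAL3 0.19. For HYAL2 it was -0.19 ± 0.32 (SE), beside 0.07 ± 0.15 without depth. The sign of HYAL2 changed, but both values lie within 1 SE of 0. The cause was not tested. By that estimate every fluvastatin library was deeper than every control, and 3 residual degrees of freedom remain in the fit with depth. A pseudocount of 0.1 gave 4.31 for HAS2, as a smaller pseudocount shrinks low values less. Under the other alternatives run, each member's log2 difference moved by less than its residual SD in the fit, the log2 spread within groups. HYAL3 could not be given at a mean of at least 5 FPKM. Leaving out each library gave 3.78 to 4.0 for HAS2, 1.14 to 1.30 for HAS3, 0.35 to 0.50 for UGDH, 1.11 to 1.47 for VCAN, 0.65 to 1.06 for HYAL3, 0.01 to 0.07 for CD44 and -0.05 to 0.17 for HYAL2, with 9 to 13 listed genes that rose and 4 to 5 that fell. Same-numbered libraries had correlations of their deviations of -0.002, 0.085 and 0.084, so the numbers were not taken to pair them. The replicate block gave 11 that rose and 4 that fell, a HAS2 difference of 3.90 ± 0.08, and no call for EXTL2 (adjusted p = 0.0611) or NDST2 (0.058). NDST2 also missed the threshold with no filter (0.07) and with quantile normalization (0.0527). Depth as a count of fragments is unknown, which limits what can be said of HYAL1 and other genes near 0.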
